A study of Mus musculus with 17 samples.

Results

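The acute phase response genes described here were Saa1, Saa2, Saa3, Orm1, Orm2, Hp, Hpx, Crp, Apcs and Lcn2, a list of 10 genes chosen by name. They were found by symbol, and all 10 were listed in both gene tables, out of 19151 genes under the high-fat diet (HFD) and 24233 under the Western diet (WD). The samples were bulk RNA-seq libraries from male mice on the C57BL6 background after 16 weeks of either diet. N-LKO mice lacked NgBR, encoded by Nus1, in the liver, through an albumin-Cre transgene acting on a loxP-flanked NgBR allele, and WT mice were their controls. The albumin promoter is active in hepatocytes, and the paper names endothelial, stellate and Kupffer cells as examples of liver cells that express NgBR. There were 4 WT and 4 N-LKO livers under HFD, and 3 WT livers, 3 N-LKO livers and 3 tumors from N-LKO mice under WD. Neither the loxP and Cre alleles of the WT mice nor any sharing of animals between tumors and N-LKO livers is given in the sources used here.

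Acute phase proteins are made mainly by hepatocytes and released into the blood during infection, injury or inflammation. Interleukin-6 acting through gp130 and STAT3, and interleukin-1 and TNF acting through NF-kB and C/EBP factors, raise their transcription within hours. In the mouse the serum amyloid A proteins are the acute phase proteins with the widest range, whereas Crp, a major reactant in humans, moves little. By single-cell sequencing under WD, the paper reported significantly higher Saa1, Lcn2, Orm2 and metallothionein genes Mt1 and Mt2 in N-LKO than in WT hepatocytes. Tumor cells had been mixed into that N-LKO sample. The bulk libraries hold liver and tumor tissue apart and do not separate cell types, so they put a related question and not the same one.

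The genes lie in a few clusters of the mouse genome, given here on GRCm38. Saa3, Saa1 and Saa2, which encode serum amyloid A apolipoproteins of high-density lipoprotein, share with Saa4 a region of 42316 bases on chromosome 7, from 46711998 to 46754313. Within it Saa1 (ENSMUSG00000074115.5, 46740497 to 46742980, minus strand) and Saa2 (ENSMUSG00000057465.5, 46751790 to 46754313, plus strand) lie 8809 bases apart and are transcribed away from each other. Orm1 and Orm2, which encode the carrier protein alpha-1-acid glycoprotein, lie with Orm3 on chromosome 4, from 63344560 to 63365878. Crp and Apcs, the pentraxins, lie on chromosome 1. Haptoglobin (Hp, chromosome 8, 109575128 to 109579172) binds free hemoglobin, and hemopexin (Hpx, chromosome 7, 105591613 to 105600137) binds free heme. Lcn2 (ENSMUSG00000026822.14, chromosome 2, 32384633 to 32388252, minus strand, 6 exons) encodes lipocalin 2, which binds bacterial siderophores. No exon of another annotated gene overlapped an exon of the 10 genes.

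The 250 bases before the RefSeq transcription start (GRCm38.p6) were read for the 8 members with an entry, which left Hp and Orm1 without one. They were searched on both strands for the STAT motif TTCNNNGAA, the C/EBP motif TTGCNNAA and the NF-kB consensus. The C/EBP letters stood in 6 of 8 promoters (Saa1, Saa2, Saa3, Orm2, Hpx and Lcn2), and in 9.56% of the 32851 mouse promoters of the same length. The STAT letters stood in Apcs alone, against 7.02% of all promoters, and the NF-kB consensus in 0 of 8, against 7.25%. No promoter of the 8 held more than 1 of these motifs, so none overlapped another. A match is a description of the letters and not evidence of binding. The sequences below are the promoters of the genes the results turn on, the pair Saa1 and Saa2 that varied together, Saa3 that did not follow them under HFD, Orm2, and Lcn2 that differed in tumors. Each is the stretch from 250 to 61 bases before the start, written 5′ to 3′ on the strand of its gene, and capitals mark the C/EBP match. The bases nearer the start are left out because other annotated transcripts of Saa2, Saa3 and Lcn2 begin there. The Lcn2 match lies in an exon of a further annotated Lcn2 transcript, which begins upstream of the stretch shown.
Saa1 (chr7:46743041-46743230, minus strand): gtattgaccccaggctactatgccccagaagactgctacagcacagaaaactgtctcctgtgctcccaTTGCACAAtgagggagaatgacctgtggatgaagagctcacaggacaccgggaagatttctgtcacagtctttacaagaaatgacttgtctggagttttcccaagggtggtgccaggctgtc
Saa2 (chr7:46751583-46751772, plus strand): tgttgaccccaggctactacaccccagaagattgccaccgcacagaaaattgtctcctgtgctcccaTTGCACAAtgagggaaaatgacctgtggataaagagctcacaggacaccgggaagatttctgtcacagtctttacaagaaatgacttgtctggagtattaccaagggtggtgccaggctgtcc
Saa3 (chr7:46715737-46715926, minus strand): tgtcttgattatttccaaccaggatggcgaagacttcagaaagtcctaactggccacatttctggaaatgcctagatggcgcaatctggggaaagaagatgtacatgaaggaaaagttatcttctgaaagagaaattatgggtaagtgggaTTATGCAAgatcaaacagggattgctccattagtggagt
Orm2 (chr4:63362199-63362388, plus strand): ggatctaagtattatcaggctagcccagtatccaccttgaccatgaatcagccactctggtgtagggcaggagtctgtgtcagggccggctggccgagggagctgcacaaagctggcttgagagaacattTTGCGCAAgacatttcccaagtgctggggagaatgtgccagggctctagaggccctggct
Lcn2 (chr2:32387800-32387989, minus strand): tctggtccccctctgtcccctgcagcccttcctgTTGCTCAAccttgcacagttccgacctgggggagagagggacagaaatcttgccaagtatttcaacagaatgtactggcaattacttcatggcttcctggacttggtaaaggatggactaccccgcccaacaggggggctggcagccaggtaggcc
The Saa1 and Saa2 promoters were 95.6% identical over 249 aligned bases. They carried the same letters, TTGCACAA, beginning 182 bases before the start in Saa1 and 183 bases before it in Saa2. Saa1 and Saa3 were 59.4% identical over 224 aligned bases, and the Saa3 match, TTATGCAA in this orientation, began 99 bases before the start.

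Levels are given as CPM, the usual count scaled to library size, here with TMM factors. Total counts per library ran from 9096110 to 12215784 under HFD and from 15494731 to 20200618 under WD. Nus1 was lower in every N-LKO and tumor library than in each WT library of its diet, with 88.2 ± 5.90 CPM (SD, n = 4) in WT and 35.1 ± 3.99 (n = 4) in N-LKO after HFD, and 94.5 ± 5.57 (n = 3), 46.7 ± 4.75 (n = 3) and 35.8 ± 7.59 CPM (n = 3) in WT liver, N-LKO liver and tumor under WD. All 10 defining hepatocyte markers were above 0 in each group. The diets were tabulated and scaled separately, so levels set side by side across diets carry no test. In whole tissue, fewer cells of a type and less RNA per cell cannot be told apart.

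Between genes, levels were compared per kilobase of transcript. In WT livers under HFD, Hp stood highest at 2494 ± 598 CPM per kb (SD, n = 4), above Hpx at 1595 ± 125.6 and Saa1 at 991 ± 560. Saa2 (613 ± 354) and Orm1 (612 ± 109) did not differ beyond their spread, and neither did Apcs (82.7 ± 9.05) and Orm2 (75.4 ± 32.2). Crp stood between these pairs at 133 ± 18.04, Lcn2 at 54.5 ± 12.5, and Saa3 lowest at 13.50 ± 2.93 CPM per kb. By group means the order was much the same in WT livers under WD, where Hp stood at 2977 ± 1180 (n = 3) and Saa3 at 16.2 ± 7.77 CPM per kb. Lcn2 (107 ± 79.2) stood there above Apcs (78.4 ± 25.6) and Orm2 (51.4 ± 21.8), within its spread. The Saa1 mean of 868 ± 1232 CPM per kb rested on replicate 2 at 2291, with replicates 1 and 3 at 156.7 and 157.5. In those replicates Orm1 was above Saa1, at 454.8 and 377 CPM per kb. In N-LKO livers Hp and Hpx also led, at 2093 ± 704 and 1571 ± 348 CPM per kb under HFD (n = 4) and 2141 ± 219.6 and 1951 ± 261 CPM per kb under WD (n = 3), less apart than their spread in both. Saa1 stood there at 574 ± 760.1 CPM per kb under HFD and at 266 ± 107 under WD, where Orm1 was above it at 466 ± 66.1. In tumors Lcn2 took the fourth place, at 404 ± 131 CPM per kb (n = 3), behind Hpx (2037 ± 84.6), Hp (1985 ± 534) and Orm1 (518 ± 71.9), which exceeded Lcn2 by less than the SD of Lcn2.

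Saa1 and Saa2 were among the genes tested that varied most between mice of the same group. The within-group SD of log2 CPM was 1.53 for Saa1 and 1.57 for Saa2 under HFD, above 99.9% of the 13460 genes tested in each case, while the median gene had 0.21. Under WD it was 1.56 and 1.74, above 99.6% and 99.8% of 17829 genes, with a median of 0.30. Lcn2 (0.98 and 0.74) and Orm2 (0.93 and 0.91) lay above 99.3% and 99.0% of genes under HFD and above 92.1% and 95.8% under WD. Crp was steady under HFD, with an SD of 0.15 that exceeded that of 30.2% of genes, but had 0.51 under WD, above 79.4%. Hpx, with 0.25 and 0.26, lay close to the median gene.

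Several members had their highest or lowest level in the same library. Under HFD, N-LKO replicate 3 held the highest level of 9 of the 10 genes, the exception being Crp, and N-LKO replicate 2 held the lowest level of 6. Under WD, WT liver replicate 2 was highest for 6 genes (Saa1, Saa2, Orm1, Hp, Hpx and Crp), and tumor replicate 2 was lowest for 5 (Saa1, Saa2, Saa3, Hp and Crp). How many of all genes had their extremes in these libraries was not counted, so this need not be particular to the members. After group means were removed, log2 CPM of Saa1 and Saa2 correlated with r = 0.999 over the 8 HFD libraries and r = 0.996 over the 9 WD libraries. Saa1 also ran with Hp (r = 0.97 and 0.92) and Orm1 (0.94 and 0.86), while its r with Lcn2 was 0.90 under HFD and 0.59 under WD, and with Saa3 0.26 and 0.80. These values describe the libraries and carry no test, since the points share group means and library scaling.

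**Figure D1:**
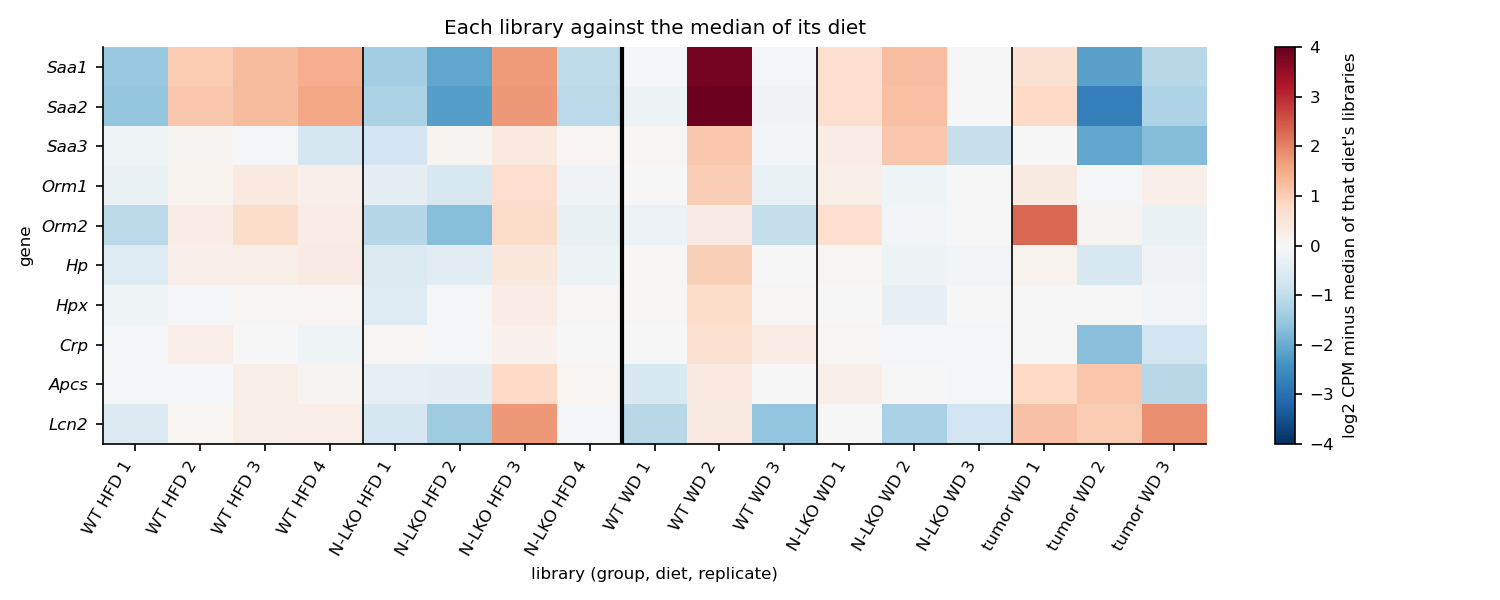
The color of each cell gives log2 CPM of a gene (rows) in a library (columns, in the order of groups) minus the median of that gene over the libraries of the same diet, with a thick line between the diets. The columns of N-LKO HFD 3 and WT WD 2 lie above the median for all 10 genes and that of WT HFD 1 below it for all 10, whereas tumors 2 and 3 are low for Saa1 and Saa2 and high for Lcn2.

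Whether loss of hepatic NgBR changed the acute phase genes under HFD was examined first. None of the 10 genes passed the test between N-LKO and WT livers (edgeR adjusted p from 0.540 to 0.950, against 4.84% of 13460 genes called at an adjusted p under 0.05). At an unadjusted p under 0.05 there were also 0 members, against 22.7% of all genes, and DESeq2 and limma-voom called 0 members. The median log2 fold change was −0.09 over the 10 genes and −0.01 over all genes tested, and 6 of the 10 lay below 0. No member had groups that did not overlap, against 14.8% of all genes.

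Saa1 stood at 112, 651, 771 and 881 CPM in the WT livers and at 123, 76.0, 1042 and 157 CPM in the N-LKO livers under HFD. Low and high livers thus occurred in both genotypes, with 1 low WT liver and 1 high N-LKO liver. Its log2 fold change was −0.79 (SE 0.77, edgeR adjusted p 0.580). Saa2 followed, with 69.4, 435, 494 and 601 CPM against 85.7, 45.0, 680.0 and 96.7 CPM and a log2 fold change of −0.82 (SE 0.78, adjusted p 0.571). Without N-LKO replicate 3 the values were −2.34 for Saa1 (adjusted p 0.0566) and −2.39 for Saa2 (adjusted p 0.0585), which also missed the threshold. Saa3 was low throughout, between 5.05 and 11.2 CPM, with a log2 fold change of 0.19 (SE 0.23).

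Under HFD Lcn2 stood at 33.4, 51.0, 56.5 and 58.8 CPM in WT and at 30.5, 18.2, 161.5 and 46.0 CPM in N-LKO livers. N-LKO replicate 3 was far above the rest, and the other N-LKO livers lay within or below the WT range. That liver also had the highest summed neutrophil (12.4 CPM), cholangiocyte (125 CPM) and stellate cell markers (334 CPM) of the HFD livers, and the part of those cells in its levels was not tested. The log2 fold change of 0.35 (SE 0.52, adjusted p 0.742) became −0.65 (adjusted p 0.221) without that liver. Orm2 stood at 24.2, 62.8, 84.0 and 62.8 CPM against 23.1, 15.7, 84.4 and 41.4 CPM, with a log2 fold change of −0.52 (SE 0.46, adjusted p 0.540). The abundant carriers were closer: Orm1 had 474 ± 84.7 CPM (SD, n = 4) in WT and 423 ± 181 (n = 4) in N-LKO livers, Hp 3354 ± 804 and 2815 ± 947, and Hpx 2391 ± 188 and 2354 ± 522 CPM. Their log2 fold changes were −0.17 (SE 0.24), −0.25 (SE 0.23) and −0.02 (SE 0.15). The pentraxins were also close, with Crp at 226 ± 30.6 and 230 ± 16.7 CPM and Apcs at 80.3 ± 8.78 and 85.3 ± 34.7 CPM (log2 fold change 0.03, SE 0.10, and 0.08, SE 0.22).

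**Figure D2:**
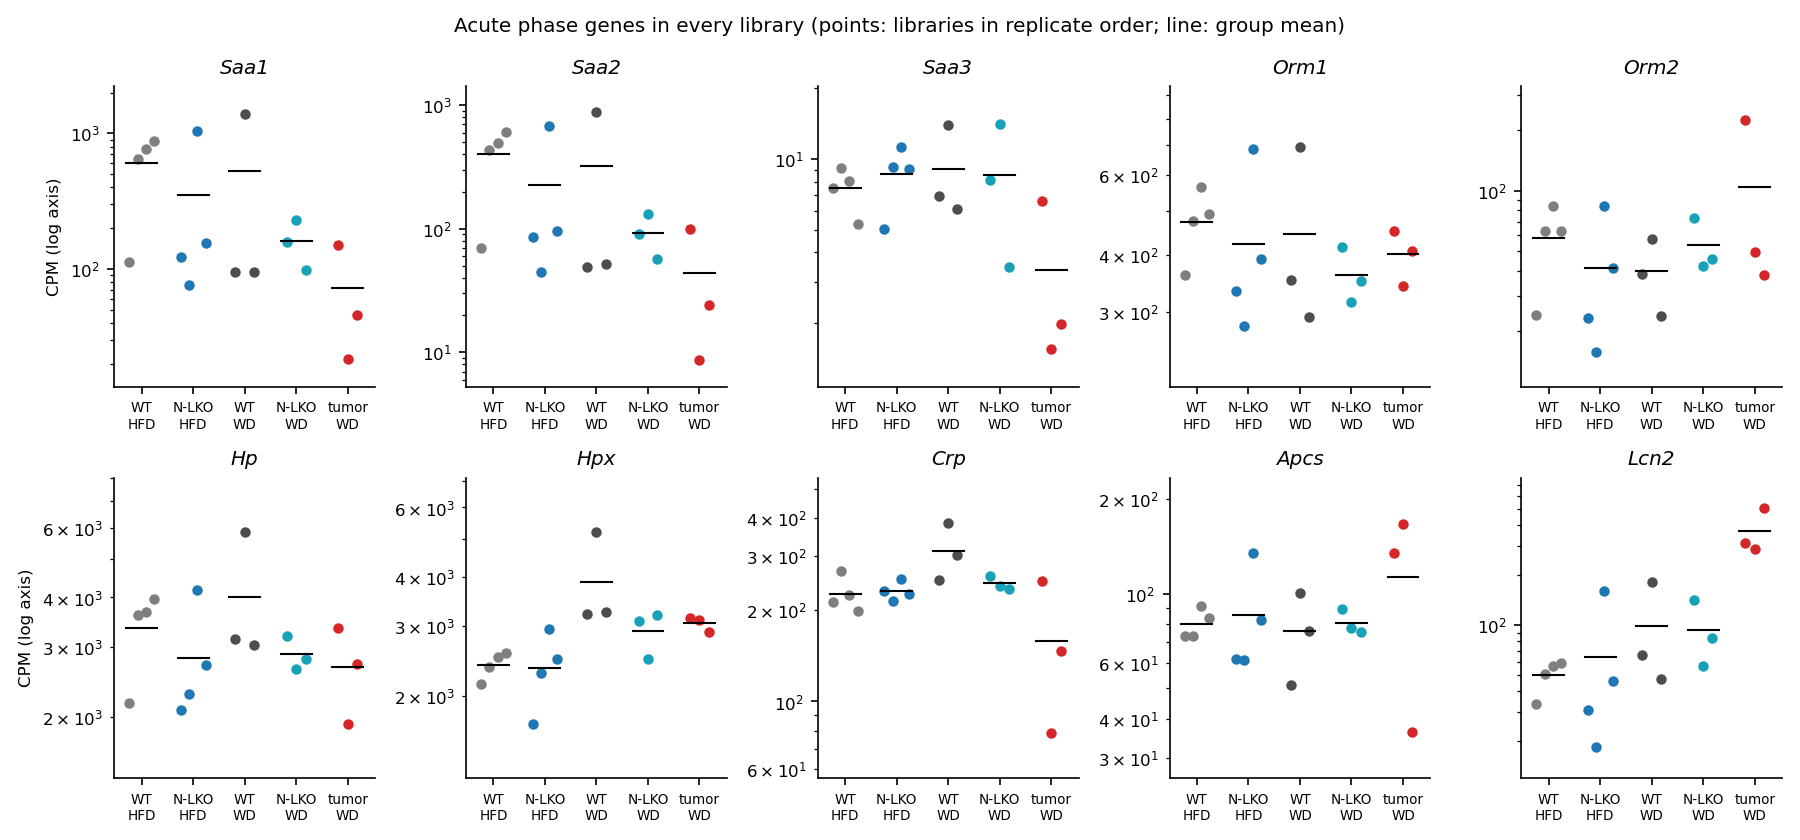
CPM on a log axis for each gene (panels) in the libraries of the 5 groups, with points in replicate order and a line at the group mean. Saa1 and Saa2 cover more than a 10-fold range within N-LKO livers under HFD and within WT livers under WD, and only for Lcn2 do the 3 tumors lie above every liver of either diet.

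Under WD the same comparison called 0 of 10 members (edgeR adjusted p from 0.469 to 0.966) and 0% of all 17829 genes. Nus1, the deleted gene, missed as well (log2 fold change −1.02, SE 0.16, edgeR adjusted p 0.151), although its groups did not overlap. DESeq2 called Nus1 (adjusted p 2.5e-05). Missing the edgeR threshold here therefore does not show that a gene was unchanged. An unadjusted p under 0.05 was reached by 2212 genes (12.4%) and 0 members, and DESeq2 called 100 genes and 0 members. The median log2 fold change was −0.33 over the members and 0.01 over all genes, with 8 of 10 below 0. That direction rested on WT replicate 2. Without it only Hp (−0.10), Hpx (−0.15) and Crp (−0.18) lay below 0, while Lcn2 stood at 0.72 and Orm2 at 0.79. No member passed in that fit either. Only Hpx had groups that did not overlap, against 27.9% of all genes. It stood at 3226, 5198 and 3254 CPM in WT and at 3086, 2479 and 3209 CPM in N-LKO livers (log2 fold change −0.41, SE 0.23, adjusted p 0.469).

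Saa1 under WD was high in 1 WT liver, with 95.4, 1395 and 95.9 CPM in WT and 158, 229 and 98.3 CPM in N-LKO livers. Each N-LKO liver was above the other two WT livers and far below WT replicate 2. Saa2 had the same shape, with 49.1, 873 and 52.4 CPM against 90.8, 131 and 57.1 CPM. The log2 fold changes were −1.71 for Saa1 (SE 1.02, adjusted p 0.498) and −1.81 for Saa2 (SE 1.12, adjusted p 0.509), and without WT replicate 2 they turned to 0.75 (adjusted p 0.937) and 0.87 (adjusted p 0.940). That library also had the lowest TMM factor, 0.806. Its summed macrophage markers (622 CPM against 919 and 949), cholangiocyte markers (38.4 against 103.1 and 103.95) and stellate cell markers (453 against 810.1 and 950.4) were the lowest of the WT livers, and its summed hepatocyte markers the highest (99309 against 78539 and 87738 CPM). Their part in the result was not tested.

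Lcn2 under WD stood at 65.9, 181 and 47.5 CPM in WT and at 141, 56.8 and 83.3 CPM in N-LKO livers, ranges that overlapped fully (log2 fold change −0.07, SE 0.49, adjusted p 0.962). Orm2 stood at 38.3, 57.4 and 23.7 CPM against 73.0, 42.4 and 45.5 CPM (0.43, SE 0.60, adjusted p 0.773). Orm1 and Hp were highest in WT replicate 2 as Saa1 was, at 693 and 5836 CPM, and their log2 fold changes were −0.30 (SE 0.29) and −0.48 (SE 0.29). Crp was 313 ± 68.9 CPM (SD, n = 3) in WT and 244 ± 12.9 (n = 3) in N-LKO livers, and Apcs 76.1 ± 24.8 and 80.8 ± 7.36 CPM (log2 fold change −0.36, SE 0.34, and 0.09, SE 0.44). Saa3 lay between 3.46 and 14.05 CPM in these 6 livers.

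The effect of genotype was then compared between the diets in the 14 livers, as the change under WD minus the change under HFD. None of the 10 genes passed (edgeR adjusted p from 0.286 to 0.973, against 1.62% of 15850 genes). No member had an unadjusted p under 0.05, against 20% of genes, and DESeq2 called 0 members. The median was −0.30 over the members and 0.00 over all genes. Its sign rested on WT replicate 2 under WD, without which only Crp (−0.21) and Hpx (−0.12) lay below 0 and no member passed. Crp had the smallest p among the 10, with a difference of −0.36 (SE 0.18, adjusted p 0.286), and Orm2 the largest positive difference, 0.98 (SE 0.67, adjusted p 0.442). For Saa1 it was −0.87 (SE 1.36), but 1.56 without WT replicate 2 under WD and 0.67 without N-LKO replicate 3 under HFD.

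Tumors were compared with both liver groups of the WD. Lcn2 was the member that set them apart, at 314, 288 and 507 CPM. These levels were above all 6 WD livers, the highest of which was WT replicate 2 at 181 CPM, and above the 8 HFD livers, which were scaled apart. Against WT livers Lcn2 rose 3.77-fold (log2 fold change 1.91, SE 0.50, edgeR adjusted p 0.0327), and it was 1 of 10 members called, against 14.9% of 17829 genes called in either direction and 8.08% called higher. At an unadjusted p under 0.05 there were 6 of 10 members, against 32.5% of genes. Against N-LKO livers the size was alike, 3.95-fold (1.98, SE 0.50), but the adjusted p was 0.0971 and 0 of 10 members passed, where 0.499% of all genes did. Lcn2 was the only member with an unadjusted p under 0.05 in that comparison (0.00267), in which 18.3% of genes had one, and DESeq2 called it (1.98, adjusted p 0.0372). Both comparisons share the tumor libraries.

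The Lcn2 call against WT livers was close to the threshold. It passed in 8 of 10 other settings of the fit, with log2 fold changes from 1.87 to 2.11, and missed with only the 2 groups compared (1.89, adjusted p 0.0644) and with the replicate block (2.00, adjusted p 0.0620). When each of the 9 libraries was left out it passed in 4 fits and missed in 5, those without N-LKO replicate 3 (adjusted p 0.0542), tumor replicate 2 (0.0508), tumor replicate 3 (0.0753), WT replicate 1 (0.100) and WT replicate 3 (0.0803). The log2 fold change stayed between 1.57 and 2.70 throughout these fits.

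Neutrophils, which carry lipocalin 2 in their granules, and bile duct cells are other possible sources of Lcn2 RNA. The summed level of the neutrophil markers, of which 11 of 12 were listed, was 7.61 to 12.1 CPM in tumors, 9.48 to 11.7 CPM in WT and 7.73 to 13.8 CPM in N-LKO livers, and 0 of the 4 that could be tested passed. The granule genes Mpo, Ngp, Camp and Ltf each averaged between 0.0464 and 0.213 CPM in tumors, and none was at 0 in all 3. The summed cholangiocyte markers were higher in tumors, at 247 to 582 CPM, than in WT livers (38.4 to 103.95 CPM) and N-LKO livers (164.1 to 201 CPM). Of 9 tested, 4 rose against WT livers, namely Sox9, Spp1, Cldn7 and Pkhd1, where 8.08% of all genes did. The ductal keratins Krt7 and Krt19 stood at 0.398 and 0.479 CPM in tumors, 0.427 and 0.496 CPM in WT livers and 0.845 and 0.756 CPM in N-LKO livers. Spp1 alone, at 323 ± 180 CPM (SD, n = 3), made up most of the tumor sum. In its single-cell data the paper took Spp1 and Epcam, both in this list, among the marks of a hepatocyte cluster enriched for cancer. The sum is thus not specific to bile duct cells. The part of neutrophils and bile duct cells in the Lcn2 level was not tested.

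**Figure D3:**
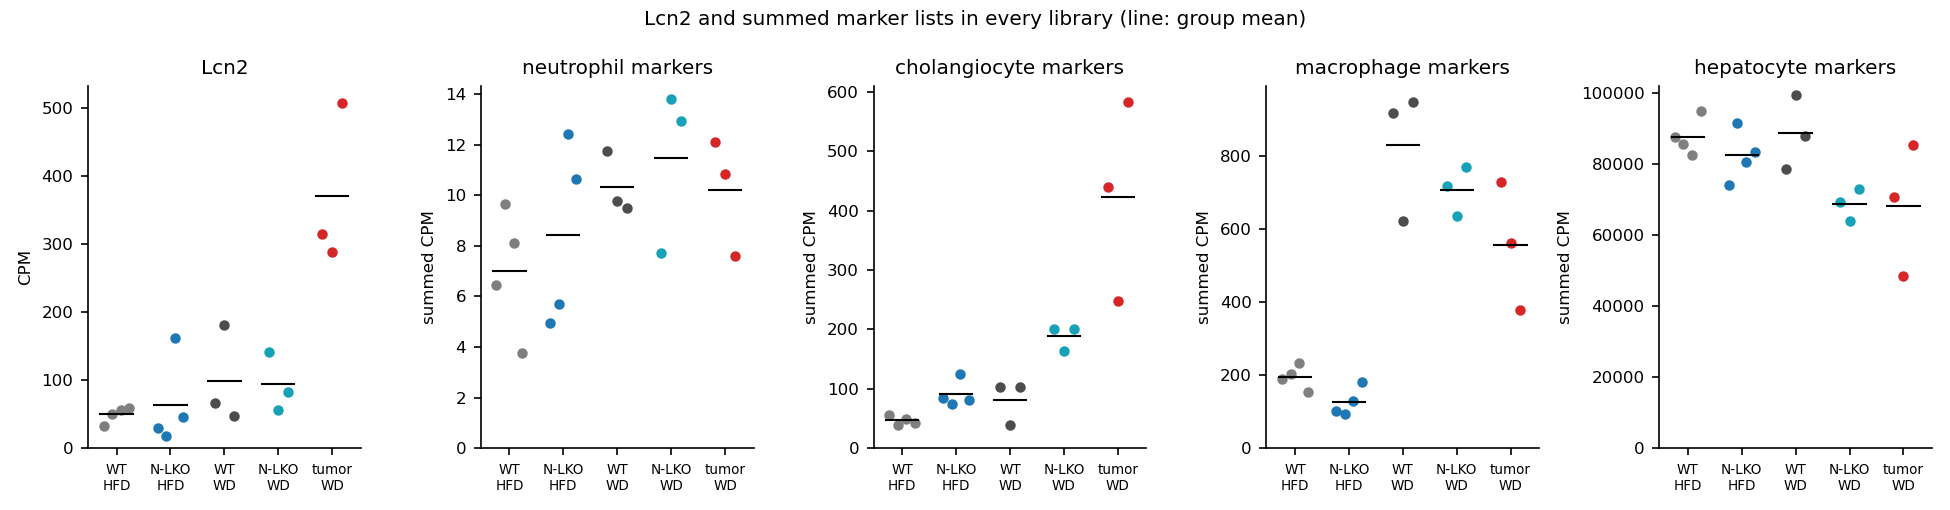
Lcn2 (CPM) and the summed CPM of neutrophil, cholangiocyte, macrophage and hepatocyte markers in each library of the 5 groups, on linear axes from 0 with a line at the group mean. The tumors stand at 288 to 507 CPM for Lcn2 and at 247 to 582 CPM for the cholangiocyte list, whereas their neutrophil sums of 7.61 to 12.1 CPM overlap those of both WD liver groups.

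The serum amyloid genes pointed the other way in tumors, without passing. Saa1 stood at 150.02, 21.8 and 45.6 CPM and Saa2 at 99.6, 8.63 and 24.1 CPM, so that tumors 2 and 3 were below every WD liver and tumor 1 was within their range. Against WT livers the log2 fold changes were −2.87 for Saa1 (SE 1.06, adjusted p 0.0937) and −2.88 for Saa2 (SE 1.17, adjusted p 0.118). They were −0.41 and −0.21 without WT replicate 2, and −3.98 (adjusted p 0.0492) and −4.32 (adjusted p 0.0494) without tumor replicate 1. Against N-LKO livers they were −1.16 (SE 1.01, adjusted p 0.577) and −1.07 (SE 1.10, adjusted p 0.646). Saa3 stood at 6.59, 1.56 and 1.98 CPM in tumors and 8.12, 14.05 and 3.46 CPM in N-LKO livers (log2 fold change −1.35, SE 0.62, adjusted p 0.281), and at 6.93, 13.97 and 6.14 CPM in WT livers (−1.42, SE 0.62, adjusted p 0.143).

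Crp had tumor levels of 248, 78.7 and 147 CPM, all below the WT livers at 249.6, 386 and 303 CPM, though tumor 1 only just. The log2 fold change was −0.99 (SE 0.34, adjusted p 0.0763) in edgeR, and −1.01 with an adjusted p of 0.0189 in DESeq2. Hpx and Lcn2 were the other members whose tumor and WT ranges did not overlap, making 3 of 10 against 34.1% of all genes. Against N-LKO livers Lcn2 alone did not overlap, against 23.1% of all genes. Tumor replicate 1 stood apart for several members: without it Crp, Lcn2 and Saa3 passed against N-LKO livers (−1.12, 2.08 and −2.28, adjusted p 0.0312, 0.0423 and 0.0406), and Crp, Lcn2, Saa1, Saa2 and Saa3 passed against WT livers, when 2193 and 3819 of all genes did.

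Orm2 was high in tumor replicate 1 alone, with 224, 49.6 and 38.0 CPM in the tumors. Its log2 fold change against WT livers was 1.38 (SE 0.61, adjusted p 0.144), and 0.14 without that tumor. Against N-LKO livers it was 0.95 (SE 0.60, adjusted p 0.428), and −0.29 without it. Apcs, the serum amyloid P component, stood at 135, 167 and 36.2 CPM, with 2 tumors above and 1 below all WD livers. Its log2 fold change against WT livers was 0.57 (SE 0.45, adjusted p 0.405), and 0.99 (adjusted p 0.0372) without tumor replicate 3. Orm1, Hp and Hpx differed little between tumors and N-LKO livers, at 401 ± 55.7 and 361 ± 51.2 CPM, 2670 ± 718 and 2880 ± 295 CPM, and 3054 ± 127 and 2924 ± 391 CPM (SD, n = 3 each), with log2 fold changes of 0.15 (SE 0.29), −0.11 (SE 0.29) and 0.06 (SE 0.22). Over the 10 members the median log2 fold change was −0.02 against N-LKO and −0.47 against WT livers, where all genes had 0.02 and 0.04.

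**Figure D4:**
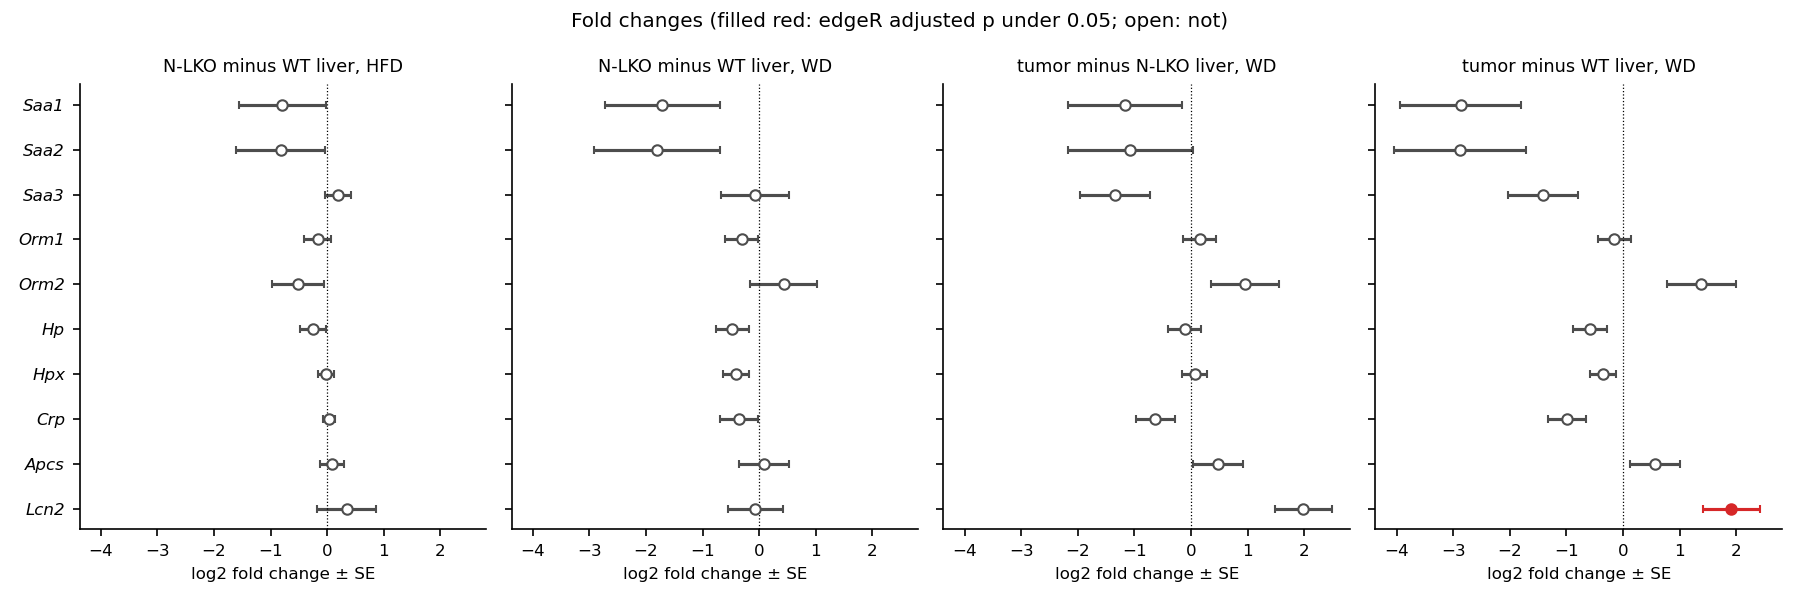
Log2 fold changes with their SE (horizontal bars) for the 10 genes in the 4 comparisons, filled red where the edgeR adjusted p was under 0.05. The 1 red point is Lcn2 in tumors against WT livers at 1.91, the point for Lcn2 against N-LKO livers lies at 1.98 and is open, and the bars of Saa1 and Saa2 are the longest.

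Saa1 with Saa2, and Orm1 with Orm2, are near copies, and the counting divided shared reads between them. The main transcripts of Saa1 and Saa2 were 94.4% identical over 606 aligned bases, and 2 of 535 windows of 75 bases in Saa1 also occurred in Saa2. For Orm1 and Orm2 it was 90.97% over 775 bases and 97 of 701 windows, so their division is the less certain. The ratio of Saa2 to Saa1 in CPM held within 0.592 and 0.695 in the 8 livers under HFD, while Saa1 itself ranged 13.7-fold, and within 0.397 and 0.664 in the 9 libraries under WD, while Saa1 ranged 64.2-fold. The ratio of Orm2 to Orm1 moved more. It was 0.0812 to 0.109 in WT livers, 0.130 to 0.175 in N-LKO livers and 0.0929 to 0.495 in tumors under WD, and 0.0669 to 0.148 and 0.0561 to 0.123 in WT and N-LKO livers under HFD. Under WD the Orm ratios of the liver groups did not overlap (means 0.0909 in WT and 0.146 in N-LKO livers). The levels of 27.9% of all genes did not overlap in that comparison, but that share is for single genes, and none was computed for ratios. Under HFD the ratios overlapped, with the means in the opposite order (0.119 in WT and 0.0885 in N-LKO livers). Summed with Orm3, the Orm genes had a log2 fold change of −0.23 (adjusted p 0.775) for N-LKO against WT after WD.

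**Figure D5:**
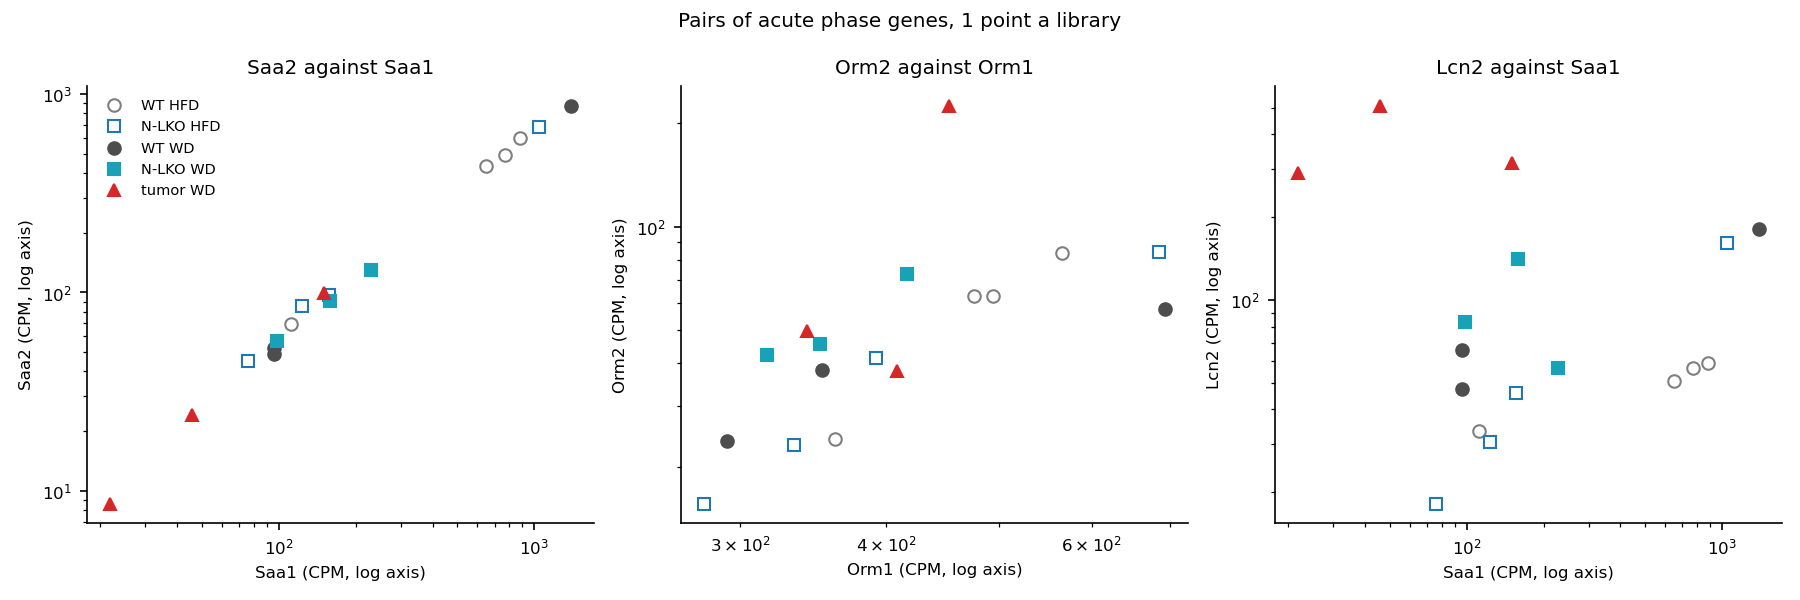
CPM of Saa2 against Saa1, Orm2 against Orm1 and Lcn2 against Saa1 on log axes, 1 point a library, open for HFD and filled for WD, with circles for WT, squares for N-LKO and triangles for tumors. Saa2 follows Saa1 along a line through all groups, tumor 1 at 224 CPM of Orm2 lies off the other libraries, and the 3 tumors hold the highest Lcn2 while their Saa1 spans 21.8 to 150.02 CPM.

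Other genes of the pathway were read from lists of known members. Of 24 further genes known to rise in the acute phase (positive reactants), 1 of 23 tested was called under HFD, higher, against 2.56% of all genes called higher. It was Il1rn, the interleukin-1 receptor antagonist gene, at 11.7 ± 1.46 CPM in N-LKO and 8.07 ± 0.799 CPM in WT livers (SD, n = 4 each, log2 fold change 0.53, adjusted p 0.0449). Under WD 0 of 24 was called between livers, with 19 of 24 below 0. In tumors against WT livers 3 of 24 rose, a share near the 8.08% of all genes called higher. They were Cp, which encodes the copper carrier ceruloplasmin (2999 ± 790 against 1544 ± 75.2 CPM, n = 3 each, 0.96, adjusted p 0.0220), Il1rn (0.86, adjusted p 0.0336) and the lipopolysaccharide receptor gene Cd14 (1.96, adjusted p 0.0172). None of the 24 was called lower. The metallothionein genes Mt1 and Mt2 had log2 fold changes of 1.33 each under HFD (adjusted p 0.0563 and 0.0585) and of −1.33 and −1.44 between livers under WD (adjusted p 0.520 and 0.523). Hamp, which encodes the iron hormone hepcidin, had −3.22 in tumors against WT livers (adjusted p 0.0956).

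Of 10 negative acute phase genes, whose products fall in inflammation, none was called between livers under either diet, though all 10 lay below 0 under WD. In tumors against WT livers 4 of 10 fell, Ttr (−0.79), Rbp4 (−0.96), Apoa2 (−0.81) and Igf1 (−1.42), where 6.8% of all genes were called lower, and the median was −0.63 where that of all genes was 0.04. Of 10 hepatocyte markers, Ttr among them, 4 fell in the same comparison, Ttr, Pck1 (−1.87), Hnf4a (−0.75) and Tat (−1.74), and their median was −0.77. The part of hepatocyte content in these levels was not tested. Apoa2 also passed in the comparison of diets (−0.74, adjusted p 0.0455).

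Upstream of the members, the cytokine gene Il6 averaged 0.0199 CPM in the WT group, 0.0834 CPM in the N-LKO group and 0.0503 CPM in tumors under WD, too low to test. Of the interleukin-6 and gp130 arm, 1 of 15 genes tested was called under HFD, lower, against 2.29% of all genes called lower. It was Lifr, the receptor gene for leukemia inhibitory factor (108 ± 6.67 CPM in N-LKO and 203 ± 60.7 CPM in WT livers, n = 4 each, −0.91, adjusted p 0.0167). In tumors against WT livers 7 of 17 were called, against 14.9% of all genes. The ligand genes Lif (3.01 ± 0.889 against 0.208 ± 0.185 CPM, n = 3 each, 3.77, adjusted p 0.00569) and Clcf1 (2.08) and the receptor genes Osmr (1.12, adjusted p 0.00957) and Il22ra1 (0.74) were higher, while Il6st, which encodes gp130 (−0.74), Lifr (−0.56) and the transcription factor gene Cebpb (−1.22, adjusted p 0.00863) were lower. Stat3 and Socs3, its feedback inhibitor, had −0.53 and −0.65 (adjusted p 0.244 and 0.386). Of the interleukin-1, TNF and NF-kB arm 4 of 21 were called in that comparison, a share near the 14.9% of all genes, with Relb (1.23) and Ikbke (1.13) higher and Rela (−0.60) and Myd88 (−0.64) lower. No gene of either arm was called in tumors against N-LKO livers or between livers under WD.

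Of 16 receptors and partners of the acute phase proteins, 13 were tested under HFD and 1 fell, against 2.29% of all genes called lower. It was Cd163, the macrophage scavenger receptor for haptoglobin and hemoglobin complexes. It stood at 1.22 ± 0.725 CPM in N-LKO and 10.54 ± 0.829 CPM in WT livers under HFD (SD, n = 4 each, log2 fold change −3.05, adjusted p 0.00149). Under WD its mean CPM was 15.2 (WT), 1.30 (N-LKO) and 0.541 (tumor). The difference between those livers did not pass (−3.54, adjusted p 0.150), and that between tumors and WT livers did (−4.76, adjusted p 0.00563). Lrp1, the receptor gene for hemopexin and heme complexes, and Hmox1, the heme oxygenase gene, were also lower in tumors than in WT livers (−0.83 and −0.92, adjusted p 0.0337 and 0.0401). With Cd163 they made 3 of 16 called in that comparison, all lower, where 6.8% of all genes were called lower. Of the 12 Kupffer cell and macrophage markers, 4 fell under HFD (Clec4f, Timd4, Marco and Vsig4), against 2.29% of all genes, and the summed level was 92.8 to 180.3 CPM in N-LKO and 154 to 233 CPM in WT livers. The part of macrophage number in the Cd163 level was not tested.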

How the data were processed

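RNA was sequenced from 17 libraries of liver or tumor, labelled as biological replicates, and their titles gave the groups and replicate numbers. Per the study's methods, ribosomal RNA was removed with Ribo-Zero, and single-end reads from an Illumina HiSeq instrument were quality trimmed and aligned with TopHat2, while the submitters' processing notes name STAR, Partek and mm9. Gene positions in the files are those of GRCm38. The authors deposited estimated counts per gene, made in Partek by expectation-maximization, which divides a read among similar genes (69.3% and 66.2% of values were whole numbers). Strand use is not given in the sources used here. Total counts were 9096110 to 20200618 per library, and the number of libraries limits the precision more than counting error.

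Estimated counts were rounded and tested with edgeR 4.0.16 (TMM, filterByExpr, quasi-likelihood F test, Benjamini-Hochberg adjusted p under 0.05) in R 4.3.3. The 8 HFD livers were fitted alone, the 9 WD libraries together, and the 14 livers together for the difference between diets over the 15850 genes tested from both tables. The approximate SE is the size of the log2 fold change over the root of F. Per-kilobase levels use the length of the main GENCODE M21 transcript. DESeq2 1.42.0, limma 3.58.1 (voom) and mgcv 1.9.3 (length and GC offset) served the alternatives, which also covered scaling, filters, the replicate number as a block, summed paralogs, a fit of only the 2 groups compared and leaving out each library. The steps were tested on simulated data. The 10 genes, the other gene lists and the tests were chosen with earlier results of these data known. All 10 genes are described. Any gene of the lists could be named, and those printed are genes called in a comparison and others picked after their values were seen. For Saa1, Saa2, Lcn2 and Orm2 the 5 genes with the most similar log2 CPM were found, and some of those under WD are not reported here. Replicates were compared in 21 pairs, with a chi-square per degree of freedom of 8.74 to 116, so none was a repeat of another.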

Additional observations from a re-analysis of the deposited data

Results flagged for a closer look

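Among 20 group values tested for a far sample, which were the 10 genes in each of the 2 groups of 4 livers, 2 held one, and chance alone gives about 1 in 20 such groups. Saa1 in N-LKO replicate 3 under HFD stood at 1042 CPM, far above 76.0 to 157 CPM in the other N-LKO livers of that diet. Saa2 in the same liver stood at 680.0 CPM, against 45.0 to 96.7 CPM. Both flags come from 1 library and from near copies of a gene, and groups of 3 were not tested. The cause was not tested.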

How the results depend on the processing

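The count of acute phase genes called was 0 under HFD, under WD and for the difference between diets in each alternative, leaving out each library included. In tumors against N-LKO livers it was 1 with DESeq2 and ranged from 0 to 3 with a library left out. In tumors against WT livers it was 2 with DESeq2 and 2 with the length and GC offset (Crp added, −1.21), 0 with the replicate block and 0 with only the 2 groups compared, and ranged from 0 to 5 with a library left out. The calls over all genes were 652, 0, 89, 2653 and 257, against 1000, 100, 1021, 3646 and 981 with DESeq2, and 494, 0, 36, 1860 and 0 with the replicate block. The offset gave 221 under HFD and 1 for the difference between diets, limma-voom 18 and a mean of at least 1 CPM 58 in tumors against N-LKO livers, and a fit of only the 2 groups compared 6, 29 and 705 under WD. With a library left out they ran from 179 to 597, 0 to 1, 3 to 2193, 569 to 3819 and 22 to 330. Same-numbered libraries correlated between −0.124 and 0.107, and the numbers were not taken as pairs. The numbers are those of the titles and differ from those in the library names for most libraries. These correlations therefore cannot tell whether tumors and N-LKO livers share animals.

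Directions that turned belong to values that missed the threshold. Under HFD the offset gave −0.031 (Saa3), −0.0088 (Crp) and −0.035 (Apcs), and Lcn2 was −0.15 with limma-voom and −0.088 with the block. Between WD livers the offset gave 0.00019 (Saa3), 0.0030 (Lcn2) and −0.031 (Apcs), and Lcn2 was 0.010 with upper-quartile scaling and 0.077 with limma-voom. The Orm genes summed gave −0.23 there against Orm2, 0.062 in tumors against WT livers and 0.0019 between diets against Orm1. Between diets, limma-voom gave 0.64 (Saa1), 0.72 (Saa2), 0.040 (Orm1) and 0.25 (Lcn2), the block 0.71, 0.78, 0.054 and 0.23, and the offset 0.059 (Saa3), 0.078 (Orm1) and 0.0058 (Hp). With a library left out, values under HFD ran from −0.14 to 0.11 (Hpx), −0.027 to 0.12 (Crp), −0.65 to 0.66 (Lcn2) and −0.22 to 0.21 (Apcs). Between WD livers they ran from −2.21 to 0.75 (Saa1), −2.32 to 0.87 (Saa2), −0.64 to 0.39 (Saa3), −0.54 to 0.16 (Orm1), −0.49 to 0.72 (Lcn2) and −0.13 to 0.34 (Apcs). In tumors they ran from −0.29 to 1.35 (Orm2), −0.31 to 0.070 (Hp) and −0.047 to 0.13 (Hpx) against N-LKO livers, and from −0.39 to 0.31 (Orm1) against WT livers. Between diets they ran from −1.36 to 1.56 (Saa1), −1.44 to 1.70 (Saa2), −0.80 to 0.20 (Saa3), −0.33 to 0.34 (Orm1), −0.35 to 0.16 (Hp), −0.79 to 0.62 (Lcn2) and −0.19 to 0.33 (Apcs). Apart from the limma-voom, offset and block values above, where the cause was not tested, Saa1 and Saa2 turned where WT replicate 2 under WD or N-LKO replicate 3 under HFD was left out.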

Other observations

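Genes of other liver cells were read from marker lists beside the acute phase genes. In tumors against WT livers 14.9% of all genes were called, and under HFD 4.84%. Of 4 adipocyte markers tested in tumors against WT livers, Fabp4, which encodes a fatty acid carrier, rose (log2 fold change 3.85) and Cfd, the complement factor D gene, fell by 4.96 on the log2 scale. Of 10 stellate cell markers Lum was higher (1.59) and Reln lower (−0.94), and under HFD 0 of 9 tested was called (edgeR), with a median of 0.91 against −0.01 over all genes. Of 12 macrophage markers Cd14 was higher in tumors than in WT livers, while Timd4 (−3.11), Marco (−4.13) and Cd5l (−1.36) were lower. Of 10 hepatocyte markers 1 fell under HFD, Apob (−0.52), where 2.29% of all genes were called lower. Under WD 0 genes of any of these lists was called between livers in edgeR, although all 10 hepatocyte markers lay below 0 and all 9 cholangiocyte markers above 0. In tumors against N-LKO livers Sox9 alone of these lists was called (1.90, edgeR adjusted p 0.0355), where 0.499% of all genes were. Under HFD the cholangiocyte list had 1 call of 4 tested, Spp1 (1.55), where 2.56% of all genes were called higher.

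The genes whose log2 CPM most resembled Saa1 after group means were removed were Saa2, Ncdn, Hp, Brix1 and Orm2 over the 8 HFD libraries (Pearson r from 0.95 to 1.00, of 8457 genes searched), and Saa2, Zcchc14, Copb1 and Srpr were among the nearest over the 9 WD libraries (r from 0.98 to 1.00, of 9743). The other genes named for Saa1 were also among the 5 nearest to Saa2 under each diet, with Saa1 itself the nearest. For Lcn2 they were Orm1, Phykpl, Apcs, Psmb1 and Zfp26 under HFD (r from 0.94 to 0.97), and they included Tmem256, Slc22a7, Plg and Mllt1 under WD (r from 0.97 to 0.99). For Orm2 they were Cxcl12, Eme2, Ripk2, Tm9sf3 and Orm1 under HFD (r from 0.96 to 0.98), and they included Sar1a, Uqcrfs1, Srr and Nlrx1 under WD (r of 0.99 for each). Among the 5 nearest to Saa1, Saa2 was the 1 gene named under both diets. With so few libraries these lists describe the samples and carry no test.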
